A study of Homo sapiens with 12 samples.

Results

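SOX11 siRNA was set against untreated cells in Granta 519, an established mantle cell lymphoma (MCL) line, over 8 of the 12 arrays of the experiment and all 33297 probe sets on them. The arrays were taken by their labels, 4 of cells nucleofected with SOX11 siRNA and 4 of untreated cells, and the 4 arrays of cells nucleofected with a control siRNA are given beside them for every gene named. In both transfected groups 4000000 cells received 100 pmol of siRNA by electroporation and were harvested after 20 h, and the arrays come from individual transfection experiments. All arrays hold RNA of this 1 cell line in the same medium, and the untreated cells received neither siRNA nor the electric pulse. In SOX11 siRNA against untreated cells alone, the loss of SOX11, the presence of an siRNA and the nucleofection therefore cannot be told apart. No harvest time is given for the untreated cells, so any difference in harvest time cannot be told apart from these either. The control siRNA arrays are said to lie with the untreated arrays where their mean log2 level covered less than 33.3% of the way from the untreated to the SOX11 siRNA mean, with the SOX11 siRNA arrays above 66.7%, and between them otherwise.

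SOX11 is a high-mobility-group transcription factor of the SOXC family, which also holds SOX4 and SOX12. It acts in the developing nervous system, is not made by normal B cells, and is a diagnostic marker of MCL, a B-cell lymphoma in which a chromosomal translocation activates cyclin D1. Nucleofection opens the plasma membrane with an electric pulse, and cells answer stress of many kinds with known programmes. Among these are the unfolded protein response, in which chaperones of the endoplasmic reticulum are induced when proteins misfold there, the integrated stress response, in which ATF4 induces amino acid synthesis and transport genes, and the oxidative stress response, in which NRF2 induces genes such as HMOX1.

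The values are linear PLIER signals, a summary of the brightness of the probes of a probe set. Differences are between group means of log2(signal + 16), so those of dim genes are understated. A probe set was called at an adjusted p under 0.05 in a limma fit of all 12 arrays, adjusted by Benjamini-Hochberg over all probe sets. Median signals per array were 69.2 to 91.8 in SOX11 siRNA cells, 74.8 to 86.4 in control siRNA cells and 81.1 to 90.4 in untreated cells, and SOX11 siRNA held both the dimmest array (replicate 3) and the brightest (replicate 4). Arrays of a group correlated at 0.989 to 0.995, and no pair of arrays was identical. In bulk RNA, fewer cells with a transcript and less of it per cell cannot be told apart, and the number of arrays limits the precision.

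The targeted gene was lower in all 4 SOX11 siRNA arrays. SOX11 had signals of 227, 229, 188 and 225 with SOX11 siRNA, 1096, 1191, 1112 and 1026 with the control siRNA, and 1028, 978, 978 and 1041 in untreated cells. The control siRNA arrays lay with the untreated ones, and neither group overlapped the SOX11 siRNA arrays. The means were 217 ± 19.7 with SOX11 siRNA, 1106 ± 67.7 with the control siRNA and 1006 ± 33 in untreated cells (SD, n = 4 each). SOX11 thus stood 78.4% below the untreated mean on the linear scale, a log2 difference of -2.14 (SE 0.0893, limma adjusted p = 4.24e-09).

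The other SOXC factors did not pass the test. SOX4 averaged 111 ± 9.13 with SOX11 siRNA, 119.9 ± 8.83 with the control siRNA and 137 ± 10.2 in untreated cells, a log2 difference of -0.27 (limma adjusted p = 0.158), with the control siRNA arrays between. SOX12 averaged 475 ± 38.3 with SOX11 siRNA, 454 ± 27.4 with the control siRNA and 487 ± 73.7 in untreated cells, a log2 difference of -0.03 (limma adjusted p = 0.939), with the control siRNA mean outside the span of both and the 3 groups overlapping. TEAD2, a TEAD transcription factor reported as a target of SOX11 in the developing nervous system, had signals of 98.2, 102, 66.7 and 93.8 with SOX11 siRNA, 146, 168, 153 and 167 with the control siRNA, and 159, 172, 172 and 178 in untreated cells. It fell by 0.83 on the log2 scale (SE 0.109, limma adjusted p = 0.000652), and its control siRNA arrays lay with the untreated ones.

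Between SOX11 siRNA and untreated cells 800 probe sets were called, or 2.4% of those on the array. Of these 268 were higher in SOX11 siRNA cells (0.805%) and 532 lower (1.6%). At a change of at least 1.5-fold, 88 were higher (0.264%) and 228 lower (0.685%). An unadjusted p under 0.05 was reached by 4963 probe sets (14.9%). The 4 SOX11 siRNA arrays did not overlap the 4 untreated ones in 2611 probe sets (7.84%), lying above them in 767 (2.3%) and below them in 1844 (5.54%). For scale, control siRNA against untreated cells gave 129 calls (0.387%), 57 higher (0.171%) and 72 lower (0.216%), and SOX11 siRNA against control siRNA gave 61 (0.183%), 1 higher (0.003%) and 60 lower (0.18%).

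The excess of falls depended on the scaling. With quantile normalization 1266 probe sets were higher and 1112 lower (53.2% of calls higher, against 33.5% on the deposited signals), and with each array centred on its median 938 were higher and 383 lower (71%). The median difference over all probe sets was -0.058 on the deposited signals, 0.005 with quantile normalization and 0.045 with centring. Of the calls on the deposited signals, 267 of the 268 rises (99.6%) and 365 of the 532 falls (68.6%) were called in the same direction under both scalings.

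Single arrays moved these counts. Leaving out SOX11 siRNA replicate 3 gave 782 rises, of which 158 reached 1.5-fold. The rises numbered 145 when SOX11 siRNA replicate 1 was left out, 130 for SOX11 siRNA replicate 2, 115 for untreated replicate 1, 109 for untreated replicate 2 and 144 for untreated replicate 4. The falls numbered 330 when SOX11 siRNA replicate 2 was left out, 245 for untreated replicate 1, 299 for untreated replicate 2, 333 for untreated replicate 3 and 293 for untreated replicate 4.

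**Figure D1:**
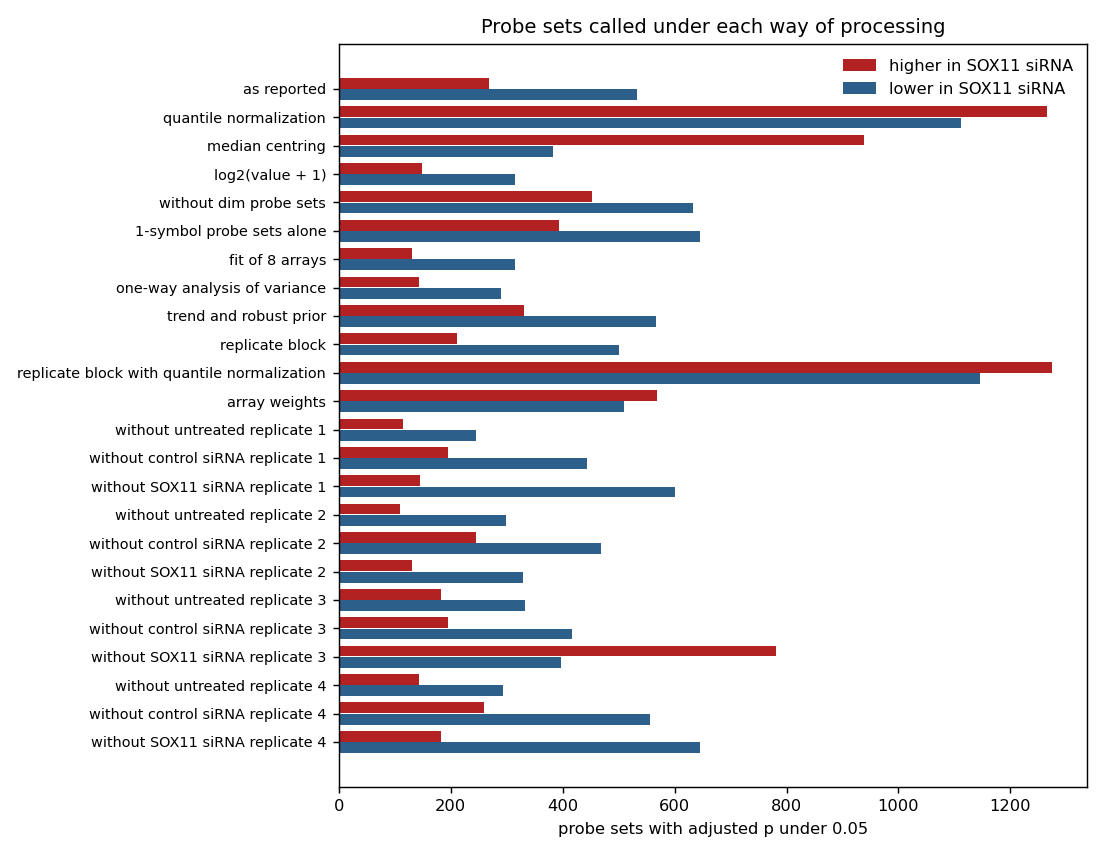
Bars give the number of probe sets called higher and lower in SOX11 siRNA than in untreated cells, one row per processing setting, on an axis that starts at 0. The deposited signals gave 268 and 532, quantile normalization 1266 and 1112, and the fit without SOX11 siRNA replicate 3 gave 782 and 397.

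**Figure D2:**
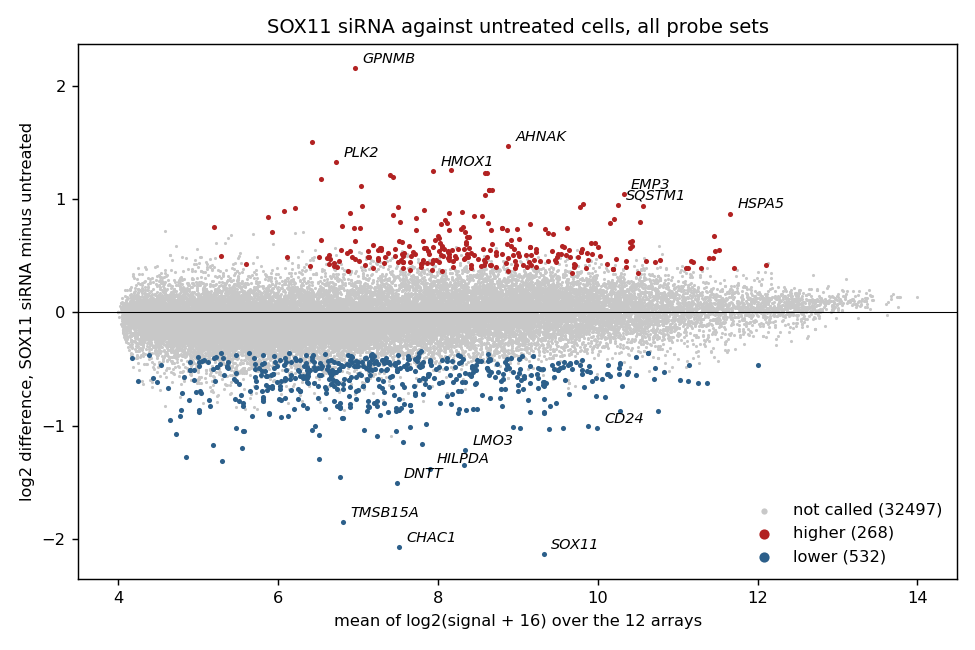
Each point is a probe set, with its mean log2(signal + 16) on the horizontal axis and the log2 difference, SOX11 siRNA minus untreated, on the vertical axis, and called probe sets are coloured. SOX11 and CHAC1 lie lowest among named genes, at -2.14 and -2.07, and GPNMB lies highest, at 2.15.

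The largest rises and falls differed in where the control siRNA arrays lay. Among the 20 genes with the largest rises and separate groups, the control siRNA arrays lay with the SOX11 siRNA arrays in 20. Among the 20 genes with the largest falls they lay with the SOX11 siRNA arrays in 4, between in 4 and with the untreated arrays in 12. Of these 12 all but BDH2 and DLG3 are on a list that the study chose on these same arrays. It holds genes lower with SOX11 siRNA than with the control siRNA, so that choice favoured this place. These counts describe arrays that enter both differences and have no test.

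**Figure D3:**
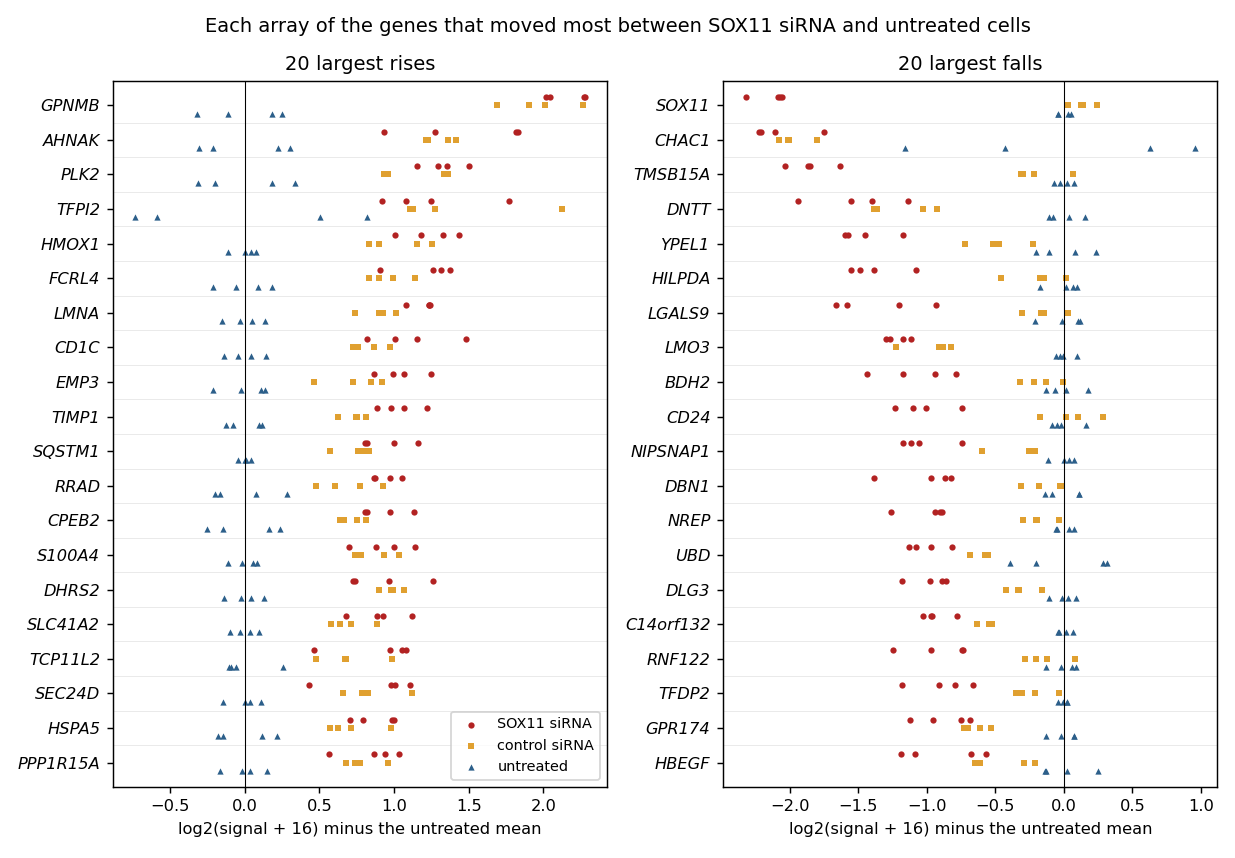
Each symbol is 1 array, placed by its log2(signal + 16) minus the untreated mean of the gene, for the 20 largest rises and the 20 largest falls. The control siRNA arrays lie beside the SOX11 siRNA arrays in all 20 rises and near 0, with the untreated arrays, in 12 of the falls.

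The falls with the control siRNA arrays at the untreated level included cytoskeletal, lipid and surface proteins. TMSB15A, a thymosin that binds actin monomers, had signals of 42.1, 33.8, 27.8 and 33.2 with SOX11 siRNA, 139, 173, 129 and 130.5 with the control siRNA, and 161, 155, 167 and 174 in untreated cells. All SOX11 siRNA arrays lay below every other array, and the fall was 1.85 on the log2 scale (SE 0.108, limma adjusted p = 3.17e-07). HILPDA, a lipid droplet protein, had signals of 146, 106, 115 and 100.4 with SOX11 siRNA, 329.7, 294, 287 and 233 with the control siRNA, and 330.1, 287, 342 and 349 in untreated cells. It fell by 1.38 on the log2 scale (SE 0.122, limma adjusted p = 2.74e-05), and the control siRNA and untreated arrays overlapped.

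LGALS9, the sugar-binding galectin-9, had signals of 221, 181, 127 and 135 with SOX11 siRNA, 447, 387, 395 and 351 with the control siRNA, and 477, 376, 472 and 432 in untreated cells. It fell by 1.34 on the log2 scale (SE 0.144, limma adjusted p = 0.00015), with the control siRNA arrays at the untreated level. The near-identical galectin genes LGALS9B and LGALS9C fell by 1.02 and 1.03 on the log2 scale (limma adjusted p = 6.67e-05 and 5.38e-05), also with the control siRNA at the untreated level. These 3 genes may share probe signal, so their separate values are uncertain. CD24, a glycoprotein of the B-cell surface, had signals of 741, 524, 576 and 615 with SOX11 siRNA, 1269, 1535, 1345 and 1111 with the control siRNA, and 1209, 1177, 1402 and 1238 in untreated cells. The fall was 1.02 on the log2 scale (SE 0.12, limma adjusted p = 0.000296), and the control siRNA arrays lay with the untreated ones.

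DBN1, the actin-binding protein drebrin, had signals of 311, 335, 229.6 and 347 with SOX11 siRNA, 613, 616, 499.6 and 549 with the control siRNA, and 676, 589, 568 and 675 in untreated cells, a log2 difference of -1.01 (SE 0.124, limma adjusted p = 0.000389). TUBA1A, an alpha-tubulin of microtubules that is abundant in neurons, had signals of 1281, 1079, 1023 and 1103 with SOX11 siRNA, 2283, 2539.7, 2221 and 1830 with the control siRNA, and 2098, 1922, 2171 and 2037 in untreated cells, a log2 difference of -0.87 (SE 0.107, limma adjusted p = 0.000418). In both genes the SOX11 siRNA arrays lay below all others and the control siRNA arrays overlapped the untreated ones.

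Further large falls of this kind were those of BDH2, a hydroxybutyrate dehydrogenase (-1.09), NIPSNAP1, a mitochondrial protein (-1.02), NREP, a small protein linked to neuronal regeneration (-1.0), DLG3, a synaptic scaffold (-0.98), RNF122, a RING-finger protein (-0.93), and TFDP2, a dimer partner of E2F factors (-0.89), all log2 differences with limma adjusted p between 6.8e-05 and 0.000584. In NIPSNAP1 and DLG3 the control siRNA arrays lay with the untreated ones by the rule and yet below each of them.

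**Figure D4:**
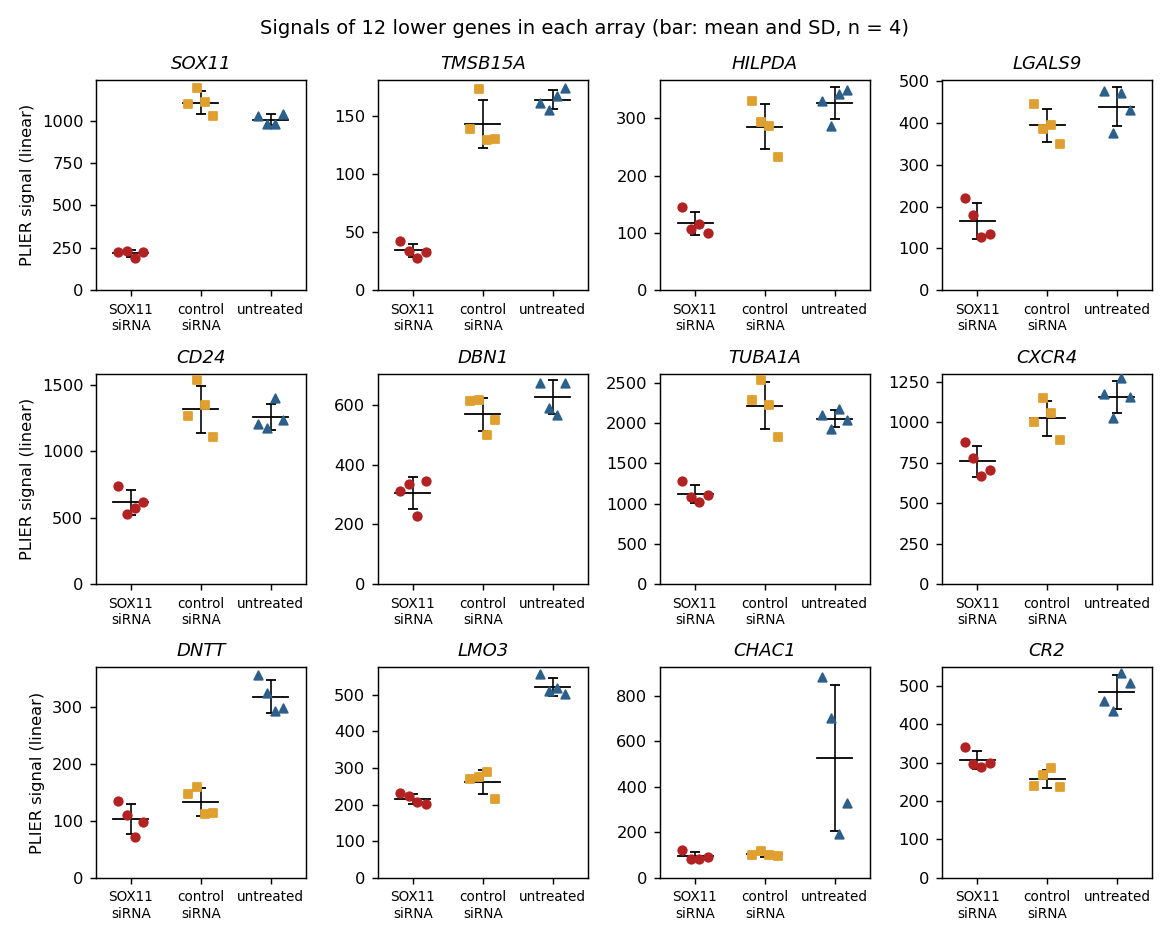
Signals of 12 lower genes on linear axes that start at 0, each symbol 1 array, with SOX11 siRNA, control siRNA and untreated cells from left to right and bars for the mean and SD (n = 4 each). The control siRNA arrays lie at the untreated level from SOX11 to CXCR4, and nearer the SOX11 siRNA arrays than the untreated ones for DNTT, LMO3 and CHAC1, with means above the SOX11 siRNA means, while for CR2 their mean lies below the SOX11 siRNA mean.

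The study selected 26 probe sets on these same arrays as lower with SOX11 siRNA than with the control siRNA, and 26 of them were lower than in untreated cells, with a median log2 difference of -0.96 against -0.06 over all probe sets. The selection used the same SOX11 siRNA and control siRNA arrays, so this count is not independent evidence. It also favoured genes whose control siRNA arrays lie apart from the SOX11 siRNA ones, so their place below was largely set by the selection. In the 25 that are named here, the control siRNA arrays lay between in 2 and with the untreated ones in 23. The 23 include the large falls of this kind given above, apart from BDH2 and DLG3, so the counts overlap. Besides those above, the list holds SETMAR, a histone methyltransferase fused to a transposase (-0.72), TIAM1, an activator of the GTPase RAC (-0.76), CASP6, a caspase (-0.70), HMGB3, a chromatin protein (-0.67), CNOT6, a deadenylase (-0.57), CILK1, a kinase of the primary cilium (-0.73), ZSCAN16, a zinc-finger protein (-0.66), ADSS, adenylosuccinate synthase (-0.83), TMSB15B (-0.84) and FAM45A (-0.88), all log2 differences with the control siRNA at the untreated level.

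The exceptions were YPEL1, a zinc-binding nuclear protein, and AS3MT, the arsenite methyltransferase. YPEL1 averaged 47.3 ± 8.95 with SOX11 siRNA, 108 ± 17.6 with the control siRNA and 157 ± 23.7 in untreated cells, and AS3MT averaged 133 ± 14.7 with SOX11 siRNA, 209.6 ± 17.3 with the control siRNA and 315 ± 12.4 in untreated cells. In both the 3 groups did not overlap. The log2 differences of SOX11 siRNA from untreated cells were -1.45 for YPEL1 and -1.16 for AS3MT (limma adjusted p = 2.74e-05 and 1.1e-05), and under quantile normalization YPEL1 lay with the untreated arrays.

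Of the genes of that list, 13 of 19 with 1 listed symbol had a RefSeq promoter window (GRCh38.p14), and the 250 bases before the start were searched on both strands. The letters ACAAAG, a core that SOX factors bind, stood in 2, SETMAR and TUBA1A (15.4%), against 13.7% of 27305 promoters. The variant ACAATG stood in 1, LGALS9 (7.69%), against 9.45% of all. These shares are close to those of all promoters, and a match is not a site.

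The other large falls were shared, wholly or in part, by the control siRNA cells. CHAC1, which degrades glutathione and is induced by ATF4, had signals of 122, 84.5, 83.2 and 91.7 with SOX11 siRNA, 98.9, 117, 99.6 and 93.7 with the control siRNA, and 886, 703, 192 and 329 in untreated cells. Both transfected groups lay below every untreated array and overlapped each other, and the untreated arrays spread widely. The difference of SOX11 siRNA from untreated cells was -2.07 on the log2 scale (SE 0.322, limma adjusted p = 0.00253). This call was lost in a one-way analysis of variance (adjusted p across all probe sets = 0.0525) and kept in the other 22 alternatives.

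DNTT, the terminal transferase of early lymphocytes, had signals of 135, 110.2, 70.8 and 97.1 with SOX11 siRNA, 147, 159, 111 and 113 with the control siRNA, and 355, 325, 292 and 298 in untreated cells. It fell by 1.51 on the log2 scale (SE 0.153, limma adjusted p = 7.94e-05), and the control siRNA arrays lay with the SOX11 siRNA ones. LMO3, a LIM-only transcriptional cofactor, had signals of 232, 222, 207 and 202 with SOX11 siRNA, 270.1, 275, 288 and 214 with the control siRNA, and 557, 511, 518 and 501 in untreated cells, and fell by 1.21 on the log2 scale (SE 0.0986, limma adjusted p = 1.1e-05). Its control siRNA arrays also lay with the SOX11 siRNA ones, as did those of GPR174, a lymphocyte receptor for a lysophospholipid (-0.88, limma adjusted p = 0.00032). In a further 3 genes the control siRNA arrays lay between: UBD, the ubiquitin-like protein FAT10 (-1.0), C14orf132 (-0.94) and HBEGF, a ligand of the EGF receptor (-0.88), all log2 differences with limma adjusted p between 2.74e-05 and 0.00499.

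Rises reached 4.44-fold on the log2(signal + 16) scale. GPNMB, a glycoprotein of lysosomes and melanosomes, had signals of 217, 182, 216 and 179 with SOX11 siRNA, 164, 178, 215 and 139 with the control siRNA, and 22.4, 28.5, 41.1 and 38.6 in untreated cells. Both transfected groups lay above all untreated arrays and overlapped each other. The difference from untreated cells was 2.15 on the log2 scale (SE 0.141, limma adjusted p = 1.1e-06). AHNAK, a giant scaffold protein under the plasma membrane, had signals of 586, 870.2, 460.1 and 861 with SOX11 siRNA, 567, 647, 562 and 624 with the control siRNA, and 274, 291, 199 and 185 in untreated cells. Its rise was 1.46 on the log2 scale (SE 0.185, limma adjusted p = 0.000459), with the control siRNA arrays inside the range of the SOX11 siRNA ones.

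PLK2, a stress-induced polo-like kinase, had signals of 154, 137, 117 and 131 with SOX11 siRNA, 98.5, 138, 135 and 100.3 with the control siRNA, and 32.1, 36.1, 59.5 and 52.1 in untreated cells, a rise of 1.32 on the log2 scale (SE 0.149, limma adjusted p = 0.000236). FCRL4, an Fc receptor-like protein of tissue memory B cells, had signals of 229, 175, 238 and 249 with SOX11 siRNA, 187, 174, 209 and 166 with the control siRNA, and 81.9, 92.5, 100 and 72 in untreated cells, a rise of 1.22 (SE 0.121, limma adjusted p = 6.8e-05). In both genes the transfected groups overlapped each other and not the untreated arrays. LMNA, the nuclear lamin A/C, averaged 229 ± 12.7 with SOX11 siRNA, 183 ± 15.6 with the control siRNA and 90.9 ± 9.12 in untreated cells, a log2 difference of 1.20 (limma adjusted p = 1.09e-05). TIMP1, an inhibitor of matrix metalloproteinases, averaged 509 ± 52 with SOX11 siRNA, 408 ± 22.5 with the control siRNA and 239.6 ± 21.3 in untreated cells, a log2 difference of 1.04 (limma adjusted p = 3.84e-05). In LMNA and TIMP1 the control siRNA arrays lay with the SOX11 siRNA ones by the rule and yet below each of them. Between SOX11 siRNA and control siRNA neither gene passed the test (limma adjusted p = 0.588 and 0.621).

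Other large rises, each with the control siRNA arrays at the SOX11 siRNA level, were those of CD1C, which presents lipids to T cells (1.11), EMP3, a membrane protein (1.04), RRAD, a Ras-like GTPase (0.94), CPEB2, a regulator of messenger RNA translation (0.93), S100A4, a calcium-binding protein (0.93), DHRS2, a dehydrogenase (0.92), SLC41A2, a magnesium transporter (0.90), TCP11L2 (0.89) and SEC24D, a coat protein of vesicles that leave the endoplasmic reticulum (0.88), all log2 differences with limma adjusted p between 0.000242 and 0.00334. TFPI2, a serine protease inhibitor, had signals of 351, 276, 511 and 310.2 with SOX11 siRNA, 321, 358, 658 and 316 with the control siRNA, and 76.8, 86.5, 256 and 203 in untreated cells. Its difference of 1.26 was called at an adjusted p of 0.0497 in the limma fit but in only 3 of the 12 fits that leave out 1 array, those without untreated replicate 3, untreated replicate 4 or control siRNA replicate 3, and untreated replicates 3 and 4 were its highest untreated arrays.

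Among stress genes some chaperones of the endoplasmic reticulum were higher and others did not pass the test. Of 39 measured genes of the unfolded protein and integrated stress response, 10 were higher in SOX11 siRNA cells (209 of 18417 genes in all, 1.13%) and 2 lower (371 in all, 2.01%), with a median log2 difference of 0.11 against -0.06 over all probe sets. HSPA5, the chaperone BiP, had signals of 4446, 4401, 3616 and 3847 with SOX11 siRNA, 3298, 4382, 3647 and 3419 with the control siRNA, and 1997, 1955, 2579 and 2397 in untreated cells, a rise of 0.87 on the log2 scale (SE 0.12, limma adjusted p = 0.000939). PPP1R15A, which restarts translation after stress, averaged 452 ± 63.1 with SOX11 siRNA, 429 ± 39.2 with the control siRNA and 242 ± 23.4 in untreated cells, a log2 difference of 0.85 (limma adjusted p = 0.000643). The other 8 were DNAJC3 (0.69), HYOU1 (0.63), SDF2L1 (0.60), CRELD2 (0.56), MANF (0.54), DNAJB9 (0.52), CALR (0.48) and HSP90B1 (0.41), chaperones, their partners or secreted factors of the endoplasmic reticulum, as log2 differences. For all 10 the control siRNA arrays lay with the SOX11 siRNA ones, while over the list the median of control siRNA against untreated cells was -0.03. In control siRNA against untreated cells 3 of the 39 genes were called higher, HSPA5, PPP1R15A and HYOU1, and 1 lower. The others of the 10 did not pass the test there. For SOX11 siRNA against untreated cells, quantile normalization gave 12 higher and 3 lower, and centring 12 higher and 2 lower. The members that did not pass the test, of which 6 were chosen here after their values were seen, included SEL1L (0.47), PDIA4 (0.32), PDIA6 (0.21), HERPUD1 (0.16), EDEM1 (0.13) and XBP1 (-0.35), with limma adjusted p between 0.0623 and 0.614 and control siRNA differences from untreated cells of 0.31, 0.20, 0.11, 0.04, -0.03 and -0.33. The count fell to 4 without untreated replicate 1 and to 5 without untreated replicate 2, SOX11 siRNA replicate 1 or SOX11 siRNA replicate 2, and HSPA5, PPP1R15A, DNAJC3 and HYOU1 kept their calls in all 12 fits that leave out 1 array.

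The response element of the unfolded protein response, CCAAT and CCACG with any 9 bases between them, was searched on both strands of the 250 bases before the start. It stood in 22 of 27305 promoters (0.0806%) and in 4 of the 10 genes that rose. The 6 others that rose, PPP1R15A, DNAJC3, HYOU1, MANF, SDF2L1 and DNAJB9, held no match. The 10 genes had been chosen because they rose, so that the carriers rose was fixed by the choice. The 4 stretches are shown as the promoters of risen chaperone and related genes in which the known element can be read, with the motif or its reverse complement in capitals (RefSeq, GRCh38.p14).
HSPA5, chr9:125241344-125241593, minus strand: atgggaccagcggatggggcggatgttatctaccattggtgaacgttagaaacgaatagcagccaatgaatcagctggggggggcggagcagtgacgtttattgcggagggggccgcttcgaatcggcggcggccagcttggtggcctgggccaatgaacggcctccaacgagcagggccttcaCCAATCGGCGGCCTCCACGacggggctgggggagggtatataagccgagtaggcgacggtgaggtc
HSP90B1, chr12:103930160-103930409, plus strand: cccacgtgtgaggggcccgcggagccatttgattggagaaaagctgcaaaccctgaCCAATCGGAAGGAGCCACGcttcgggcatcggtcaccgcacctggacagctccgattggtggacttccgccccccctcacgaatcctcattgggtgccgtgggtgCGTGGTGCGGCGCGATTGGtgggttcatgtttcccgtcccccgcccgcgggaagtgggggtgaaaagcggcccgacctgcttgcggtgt
CALR, chr19:12938359-12938608, plus strand: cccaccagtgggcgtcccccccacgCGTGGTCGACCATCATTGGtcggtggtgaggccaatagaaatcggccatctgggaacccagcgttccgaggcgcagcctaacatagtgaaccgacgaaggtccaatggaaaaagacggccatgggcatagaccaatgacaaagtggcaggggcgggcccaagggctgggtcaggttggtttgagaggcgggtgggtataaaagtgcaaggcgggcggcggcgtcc
CRELD2, chr22:49918384-49918633, plus strand: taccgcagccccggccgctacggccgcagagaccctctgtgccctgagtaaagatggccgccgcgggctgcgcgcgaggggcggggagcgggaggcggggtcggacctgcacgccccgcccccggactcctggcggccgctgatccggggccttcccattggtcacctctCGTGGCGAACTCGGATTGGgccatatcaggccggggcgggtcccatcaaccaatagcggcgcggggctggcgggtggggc
HSP90B1 holds the element once on each strand, and the others hold it once. A match is a description, and no match says only that these letters are not in this stretch.

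Of the list, 2 genes were called lower, CHAC1 and CTH. CTH, which makes cysteine, averaged 18.4 ± 2.92 with SOX11 siRNA, 21 ± 1.37 with the control siRNA and 34.6 ± 4.9 in untreated cells, a log2 difference of -0.56 (limma adjusted p = 0.00519), with the control siRNA at the SOX11 siRNA level. A pair of others, chosen here after their values were seen, differed mainly among the untreated arrays. SESN2, a stress-induced inhibitor of growth signalling, had signals of 284, 287, 256 and 239.9 with SOX11 siRNA, 247, 275, 247 and 229 with the control siRNA, and 756, 517, 252 and 357 in untreated cells, a log2 difference of -0.68 (limma adjusted p = 0.143). PSAT1, of serine synthesis, had 850.5, 711, 527 and 567 with SOX11 siRNA, 691, 837, 695 and 573 with the control siRNA, and 1762, 1174, 680.1 and 838 in untreated cells (-0.66, limma adjusted p = 0.169). In both, untreated replicate 1 was the highest of the untreated arrays and untreated replicate 3 the lowest, and the control siRNA arrays lay with the SOX11 siRNA ones. Among the 39 genes untreated replicate 1 was the highest of the 4 untreated arrays in 28 (71.8%), against 29.8% of all probe sets. Most of these genes were not among those that rose. Of the genes that rose, only DNAJB9 and PPP1R15A had their highest untreated signal in that array. HSPA5 read 1997 in it and 1955, 2579 and 2397 in untreated replicates 2, 3 and 4. The part of untreated replicate 1 in the calls was not tested beyond leaving it out.

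Of 27 redox and metal genes 4 were higher and 0 lower, where 1.13% of all genes were higher. With quantile normalization 6 were higher and 2 lower, and with centring 7 higher and 0 lower. HMOX1, heme oxygenase, had signals of 377, 313, 276 and 349 with SOX11 siRNA, 307, 329.9, 242 and 254 with the control siRNA, and 129, 137, 118 and 133 in untreated cells. Every transfected array lay above every untreated one, and the rise was 1.24 on the log2 scale (SE 0.116, limma adjusted p = 3.84e-05). SQSTM1, an autophagy receptor, averaged 1592 ± 192 with SOX11 siRNA, 1373 ± 109 with the control siRNA and 813 ± 20.7 in untreated cells (0.95, limma adjusted p = 0.0001). NQO1, a quinone reductase, averaged 338 ± 55.5 with SOX11 siRNA, 281 ± 21.1 with the control siRNA and 188 ± 4.91 in untreated cells (0.79, limma adjusted p = 0.000749). In these 3 the control siRNA arrays lay with the SOX11 siRNA ones. For SLC30A1, a zinc exporter, they lay between, with means of 348 ± 47.3 with SOX11 siRNA, 264 ± 7.1 with the control siRNA and 203 ± 20.8 in untreated cells (0.73, limma adjusted p = 0.00134).

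Of 31 immediate early genes 4 were higher and 0 lower (1.13% of all genes were higher), and 7 were higher with quantile normalization and with centring. JUN, a subunit of AP-1, had signals of 233, 216, 200.3 and 199 with SOX11 siRNA, 198, 213, 212 and 163 with the control siRNA, and 107, 105, 117 and 132 in untreated cells, a log2 difference of 0.80 (limma adjusted p = 0.000611), with the control siRNA at the SOX11 siRNA level. DUSP5, a phosphatase of ERK, also had the control siRNA at the SOX11 siRNA level (282 with SOX11 siRNA, 293 with the control siRNA and 173 in untreated cells on average, log2 difference 0.66). ZFP36, which destabilises cytokine messages, had signals of 164, 167, 133 and 157 with SOX11 siRNA, 107, 123, 89.8 and 124 with the control siRNA, and 85.3, 82.8, 86.2 and 89.8 in untreated cells, a log2 difference of 0.74 (limma adjusted p = 0.00107). Its control siRNA arrays lay between and below each SOX11 siRNA array, while the lowest of them and the highest untreated array both read 89.8. Against the control siRNA the difference of 0.44 did not pass the test (limma adjusted p = 0.188). The fourth, SPRY2 (0.46, between), was not called without untreated replicate 1, 2 or 4 or SOX11 siRNA replicate 2 (highest adjusted p in limma 0.0798).

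Of 22 target genes of p53, 4 were higher and 0 lower (1.13% of all genes were higher), with a median log2 difference of 0.34. GDF15, a secreted stress cytokine, had signals of 147, 114, 129 and 139 with SOX11 siRNA, 129, 138, 124 and 135 with the control siRNA, and 68.3, 70.2, 76.3 and 73.3 in untreated cells, a rise of 0.75 on the log2 scale (SE 0.0899, limma adjusted p = 0.000349), with the control siRNA at the SOX11 siRNA level. The other 3 were GADD45A (0.58), PHLDA3 (0.54) and TIGAR (0.48), as log2 differences, also with the control siRNA at the SOX11 siRNA level. With quantile normalization 10 were higher and 1 lower, and with median centring 10 higher and 0 lower, while the rises over all probe sets went up as well, to 1266 and 938 against 268. The count was 1 without untreated replicate 1, untreated replicate 2, SOX11 siRNA replicate 1 or SOX11 siRNA replicate 2, and 2 without untreated replicate 4 or control siRNA replicate 1, and GDF15 was called in all 12 of these fits. MDM2 and CDKN1A, well known targets of p53, had log2 differences of 0.38 and 0.12 that did not pass the test (limma adjusted p = 0.0949 and 0.642), and control siRNA against untreated cells gave 0.29 and 0.13. In control siRNA against untreated cells 1 of the 22 genes was called higher, GDF15. There GADD45A, PHLDA3 and TIGAR did not pass the test (limma adjusted p = 0.0758, 0.437 and 0.354).

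Of 57 replication-dependent histone genes, which are transcribed in S phase, 16 were lower and 0 higher (2.01% of all genes were lower), with a median log2 difference of -0.36. H2BC14 had signals of 2157, 2053, 1797 and 1845 with SOX11 siRNA, 1976, 1938, 1934 and 1763 with the control siRNA, and 3177, 2755, 2874 and 3186 in untreated cells, a fall of 0.61 on the log2 scale (SE 0.0923, limma adjusted p = 0.00206). H2BC17 fell by 0.78, H2AC15 by 0.59 and H2AC11 by 0.54 (limma adjusted p = 0.0128, 0.0112 and 0.0109). For all 16 called the control siRNA arrays lay with the SOX11 siRNA ones, and over the 57 genes the control siRNA cells had the same median difference from untreated cells, -0.36, with 6 called lower. The genes are near copies of each other and probes may be shared: H4C14 and H4C15 have identical values. The count was 38 with quantile normalization and 7 with median centring. It was 4 without untreated replicate 1, 6 without untreated replicate 3 or 4, 9 without untreated replicate 2, SOX11 siRNA replicate 2 or SOX11 siRNA replicate 3, and 10 without SOX11 siRNA replicate 4.

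Among 39 genes of DNA replication and the G1/S step, 3 were lower and 0 higher (2.01% of all genes were lower). The count was 16 with quantile normalization, where the falls over all probe sets were 1112 against 532, and 2 with centring, where they were 383. CHAF1B, a subunit of the factor that loads histones onto new DNA, averaged 345 ± 18.6 with SOX11 siRNA, 366 ± 20 with the control siRNA and 519 ± 17.5 in untreated cells, a log2 difference of -0.57 (limma adjusted p = 0.00134), with the control siRNA at the SOX11 siRNA level. CDC45, of the replicative helicase, and E2F1, an activator of S-phase genes, differed by -0.60 and -0.46 with the control siRNA between. CDC45 lost its call without untreated replicate 1, untreated replicate 3 or SOX11 siRNA replicate 2, and E2F1 was called in 4 of the 12 fits that leave out 1 array. Of 34 genes of mitosis 2 were lower, CENPF, of the kinetochore (-0.52, control siRNA between), and MKI67, the Ki-67 antigen (-0.44, control siRNA at the SOX11 siRNA level). The count was 10 with quantile normalization and 1 with centring, beside the same 2.01% of all genes lower. CENPF was called in 8 and MKI67 in 3 of those 12 fits.

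Sterol and fatty acid synthesis had 5 of 26 genes lower and 0 higher (2.01% of all genes were lower), with a median log2 difference of -0.24. SCD, which desaturates fatty acids, had signals of 961, 915, 758 and 802 with SOX11 siRNA, 968, 1057, 1078 and 871 with the control siRNA, and 1353, 1334, 1605 and 1512 in untreated cells, a fall of 0.75 on the log2 scale (SE 0.106, limma adjusted p = 0.00116). FDPS, which makes farnesyl diphosphate, averaged 1084 ± 109 with SOX11 siRNA, 1046 ± 82.1 with the control siRNA and 1591 ± 150.4 in untreated cells, a log2 difference of -0.55 (limma adjusted p = 0.00994). In both the control siRNA arrays lay with the SOX11 siRNA ones, as in FADS2 (-0.54) and DHCR7 (-0.46), and they lay between in ACSS2 (-0.65). DHCR7 was called in 2 of the 12 fits that leave out 1 array. Without untreated replicate 1 or untreated replicate 4, 3 of the genes were called lower, and the count was 10 with quantile normalization, where the falls over all probe sets were 1112 against 532, and 4 with centring.

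Of the B-cell markers, MS4A1 (CD20) averaged 4544 ± 377 with SOX11 siRNA, 4447 ± 298 with the control siRNA and 4637 ± 379 in untreated cells, and CCND1, the cyclin activated in MCL, averaged 3213 ± 329.9 with SOX11 siRNA, 3284 ± 234 with the control siRNA and 3451 ± 155 in untreated cells. Neither difference passed the test (limma adjusted p = 0.919 and 0.636), nor did those of CD79A, CD79B and PAX5 (limma adjusted p = 0.948, 0.903 and 0.482). By the rule the control siRNA arrays lay with the SOX11 siRNA ones for CCND1, with the untreated ones for CD79B and PAX5, and outside for MS4A1 and CD79A. CD22, an inhibitory receptor of B cells, had signals of 711, 699, 569 and 713 with SOX11 siRNA, 674, 669, 618 and 629.7 with the control siRNA, and 975, 879.9, 934 and 985 in untreated cells, a fall of 0.48 on the log2 scale (limma adjusted p = 0.0118). CR2, the complement receptor CD21, averaged 306 ± 23.3 with SOX11 siRNA, 258 ± 24.1 with the control siRNA and 484 ± 44.9 in untreated cells, a fall of 0.63 (limma adjusted p = 0.00251). For CD22 the control siRNA arrays lay with the SOX11 siRNA ones, and for CR2 below each of them, outside the span of the other means. HLA-DOB, which regulates peptide loading in B cells, averaged 259.9 ± 41.7 with SOX11 siRNA, 328 ± 33.4 with the control siRNA and 479 ± 31.3 in untreated cells (-0.85, limma adjusted p = 0.000652), with the control siRNA between.

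CXCR4, a homing receptor of lymphocytes, had signals of 879.9, 782, 667 and 704 with SOX11 siRNA, 1000.1, 1151, 1058 and 892 with the control siRNA, and 1175, 1029, 1272 and 1157 in untreated cells. It fell by 0.60 on the log2 scale (limma adjusted p = 0.00826) and its control siRNA arrays lay with the untreated ones. Against the control siRNA the difference of -0.43 for CXCR4 did not pass the test (limma adjusted p = 0.27). FZD3, a Wnt receptor of developing neurons, averaged 60.6 ± 11.3 with SOX11 siRNA, 99.6 ± 7.29 with the control siRNA and 103 ± 12.1 in untreated cells (-0.64, limma adjusted p = 0.0094), with the control siRNA at the untreated level. The FZD3 difference of -0.6 from the control siRNA did not pass the test (limma adjusted p = 0.0587). ADA, adenosine deaminase (-0.68, limma adjusted p = 0.00123), and BRIP1, a helicase of DNA repair (-0.56, limma adjusted p = 0.0135), had the control siRNA between.

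Of 15 plasma cell genes 2 were higher and 0 lower (1.13% of all genes were higher), with a median log2 difference of -0.09, and with quantile normalization 2 were higher and 2 lower. Those higher were FKBP11, a prolyl isomerase of the endoplasmic reticulum (0.81, limma adjusted p = 0.00208, control siRNA at the SOX11 siRNA level), and SLAMF7, a surface receptor (0.58, limma adjusted p = 0.0115, control siRNA between). In the lysosomal list 3 of 24 were higher (1.13% of all genes), GPNMB, SQSTM1 and CTSZ, a cathepsin whose control siRNA arrays lay between (0.58, limma adjusted p = 0.00974), and 8 were higher with quantile normalization and with centring.

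Genes that answer foreign nucleic acid were not called higher on the deposited signals. Over all genes 1.13% were called higher, so 0 rises in lists of this size lies near the share of all genes. Of 21 nucleic acid sensors 0 were called in the limma fit, with 5 at an unadjusted p under 0.05 and 2 higher and 1 lower with quantile normalization. Of 37 interferon-induced genes 0 were higher and 3 lower (2.01% of all genes were lower), 1 was higher with quantile normalization and with centring, and 2 were higher without SOX11 siRNA replicate 3. CXCL10, a chemokine induced by interferon gamma, had signals of 502, 392, 434 and 342 with SOX11 siRNA, 529, 583, 626 and 446 with the control siRNA, and 594, 548, 1006 and 809 in untreated cells, a log2 difference of -0.77 (limma adjusted p = 0.0273), with the control siRNA between. IFIT1 (-0.56, control siRNA at the SOX11 siRNA level) and USP18 (-0.62, control siRNA between) were the others. The count of 3 was 0 without SOX11 siRNA replicate 2, untreated replicate 3 or untreated replicate 4, 1 without SOX11 siRNA replicate 4, and 2 without any 1 of 5 other arrays. Without SOX11 siRNA replicate 4 CXCL10, IFIT1 and USP18 all lost their calls, so the 1 called there was another member of the list. No member was called in the limma fit among 27 hypoxia-induced, 23 apoptosis, 22 neuronal, 23 cilium, 64 ribosomal protein and 36 proteasome genes, where 5, 3, 0, 5, 3 and 3 had an unadjusted p under 0.05. Beside these lists, 1.13% of all genes were called higher and 2.01% lower.

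Further lists had few calls, and those named here were lost without 1 or another array. The regulators of microtubules STMN1 (-0.49, control siRNA between) and STMN3 (-0.51, at the SOX11 siRNA level) were lower, each called in 9 of the 12 fits that leave out 1 array. UQCRC1, a subunit of respiratory complex III (-0.50, control siRNA at the untreated level), was lower and called in 6 of them. Its difference of -0.37 from the control siRNA did not pass the test (limma adjusted p = 0.549). FCRLA, an Fc receptor-like protein of B cells (0.45, between), and CD83, an activation marker (0.40, between), were higher and called in 4 and 2 of the 12 fits. CIITA, the regulator of MHC class II (-0.41, at the SOX11 siRNA level), and WNT5A, a Wnt ligand (-0.48, at the SOX11 siRNA level), were lower and called in 6 and 7. Both DNAJB1 (0.61) and DNAJB4 (0.44), cytosolic cochaperones with the control siRNA at the SOX11 siRNA level, were higher and called in 3 and 4. Values that did not pass the test, all with the control siRNA between, were those of TICAM1, an adaptor of the sensor TLR3 (0.29, limma adjusted p = 0.135), PDK1, a kinase of pyruvate dehydrogenase (-0.32, limma adjusted p = 0.105), XIAP, an inhibitor of caspases (0.27, limma adjusted p = 0.226), and IFT20, of intraflagellar transport (0.37, limma adjusted p = 0.117).

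**Figure D5:**
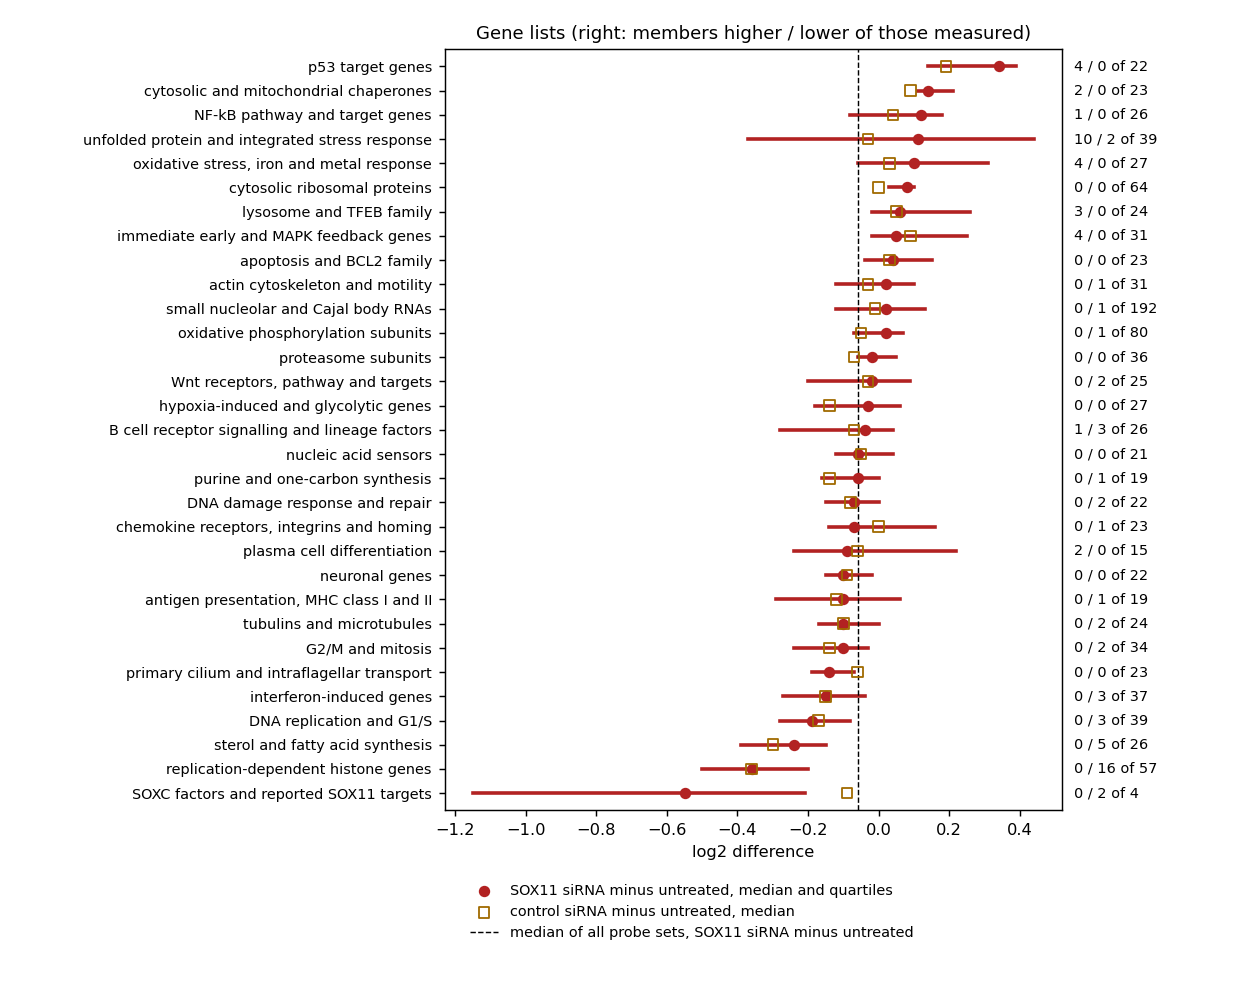
Circles and bars give the median and quartiles of the log2 difference, SOX11 siRNA minus untreated, over the measured genes of each list, squares the median of control siRNA minus untreated, and the dashed line the median of all probe sets, -0.06. The p53 targets lie at 0.34 with the square at 0.19, and the histone genes at -0.36 with the square at the same place.

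Markers of other cell types were measured beside these results. Summed signals of 10 T and NK cell markers were 379 to 539.5 in SOX11 siRNA arrays and 429 to 545 in untreated arrays, and those of 9 myeloid markers 488 to 639.6 in SOX11 siRNA arrays and 496 to 685 in untreated arrays, with 0 members called in either list by limma and 0 and 1 at an unadjusted p under 0.05. The sum of 8 fibroblast markers was 407 to 553 in SOX11 siRNA arrays and 564 to 626 in untreated arrays, without overlap, and THY1 was its 1 called member (67.2 with SOX11 siRNA, 94.6 with the control siRNA and 131 in untreated cells, log2 difference -0.80, limma adjusted p = 0.00217, control siRNA between). Of 7 epithelial markers KRT18 was higher (163 with SOX11 siRNA, 159.7 with the control siRNA and 104 in untreated cells, 0.57, limma adjusted p = 0.0203, control siRNA at the SOX11 siRNA level), and it was called in 8 of the 12 fits that leave out 1 array. Most of these markers were dim. Below the median probe set in mean signal lay 8 of the 10 T and NK cell, 6 of the 9 myeloid, 6 of the 8 fibroblast and 5 of the 7 epithelial markers. The part of these markers in the other results was not tested.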

How the data were processed

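Total RNA of Granta 519 cells was measured on 12 Human Gene ST arrays, 4 per group, and groups were taken from the labels. The deposited intensities are linear probe set signals that the authors made with PLIER in Affymetrix Expression Console 1.1, scaled to a global median. No genome build of the probe sets is given in the sources used here. The deposited group means, fold changes and p-values, and the RMA values of the study, were not used.

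Values were transformed as log2(signal + 16) and fitted in limma 3.58.1 (R 4.3.3) over 33297 probe sets and 3 groups jointly, with no further normalization or filter and Benjamini-Hochberg adjustment. Platform annotation gave 1 symbol for 19460 probe sets, several for 1754 and none for 12083, and current symbols were matched by gene ID for 19429. Each of 18417 genes was described by 1 probe set in the counts over genes. Named genes are the 20 largest called rises and falls with 1 symbol and separate groups, the study's list, the SOXC factors and TEAD2, the leading members of each list, and genes said in the text to be chosen after their values were seen. The genes and lists were chosen with earlier results of these data known. The result of 1 gene is not reported here. Tested on simulated data of this comparison over 33297 probe sets, the fit called 64.2% of the 67 with a true 1.5-fold change and 95.5% of the 67 with a 2-fold one, all 66 with a 4-fold one, and 10 that had none. The changes were planted only in probe sets above the median untreated level. The noise was independent, with no shift shared by an array. These rates therefore do not cover changes in dim probe sets or shifts of whole arrays. Nothing says that replicates came from separate cultures beyond individual transfections, so p-values measure the spread between these arrays. Alternatives were quantile normalization, median centring, another pseudocount, filters, other fits, the replicate number as a block and leaving out each array.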

Additional observations from a re-analysis of the deposited data

Results flagged for a closer look

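Single arrays stood apart from the other 3 of their group in 28 of 360 groups of 4 tested (7.78%), where chance gives about 1 in 20. An array was listed where its gap to the nearest of the others, over the range of the group, passed Dixon's critical value. No explanation was tested. Among the SOX11 siRNA arrays these were LMNA at 209 in replicate 2 against 234 to 236, SOX11 at 188 in replicate 3 against 225 to 229 and NREP at 500.2 in replicate 3 against 628 to 653. Others were FAM45A at 315 in replicate 3 against 411 to 423, CD22 at 569 in replicate 3 against 699 to 713 and STMN1 at 1659.5 in replicate 1 against 1279 to 1339.8. Further ones were FZD3 at 43.7 in replicate 3 against 65.5 to 67.5. Among the control siRNA arrays these were TFPI2 at 658 in replicate 3 against 316 to 358, NIPSNAP1 at 456 in replicate 4 against 582 to 601 and FAM45A at 666 in replicate 2 against 569 to 584. Others were PDK1 at 196 in replicate 4 against 223 to 228, FADS2 at 1069 in replicate 2 against 946 to 963 and E2F1 at 187 in replicate 1 against 147 to 153. Further ones were XIAP at 391 in replicate 2 against 330 to 337, STMN3 at 87.2 in replicate 4 against 76.4 to 76.8 and IFT20 at 256 in replicate 4 against 303 to 305. The remaining ones were H2BC17 at 68.7 in replicate 4 against 108 to 115. Among the untreated arrays these were TCP11L2 at 39.8 in replicate 1 against 27.5 to 28.8, ADSS at 895 in replicate 3 against 790.5 to 808 and CILK1 at 209 in replicate 1 against 184 to 187. Others were TICAM1 at 127 in replicate 1 against 149 to 149.8, IFIT1 at 108 in replicate 1 against 88.4 to 89 and SLC30A1 at 234 in replicate 3 against 188 to 195. Further ones were CD83 at 504 in replicate 3 against 451 to 459.5, FCRLA at 1531 in replicate 1 against 1217 to 1264 and IFT20 at 249.7 in replicate 3 against 242 to 242. The remaining ones were H2BC17 at 210.4 in replicate 3 against 175 to 177 and UQCRC1 at 772 in replicate 1 against 683 to 687.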

How the results depend on the processing

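The 268 rises became 1266 with quantile normalization, 938 with median centring, 149 on log2(value + 1), 452 without dim probe sets, 130 in a fit of the 8 arrays alone, 144 in a one-way analysis of variance, 569 with array weights, and 109 to 782 without 1 array. The 532 falls became 1112 with quantile normalization, 314 on log2(value + 1), 315 in the fit of 8 arrays, 289 in the analysis of variance, and 245 to 645 without 1 array. At 1.5-fold the 88 rises became 195 with centring and 71 to 158 without 1 array, and the 228 falls became 131 with centring, 133 in the analysis of variance and 152 to 310 without 1 array. The replicate number as a block gave 211 rises and 500 falls, and together with quantile normalization 1274 and 1145. Same-numbered arrays of SOX11 siRNA and untreated cells had deviations that correlated at -0.0701, -0.15, -0.079 and -0.00293, so the numbers were not taken to pair the arrays. SOX12, at -0.03 and not called, turned to 0.08 with centring, and ranged over -0.13 to 0.04 without 1 array. It was 0.01 without untreated replicate 1, 0.04 without untreated replicate 2 and 0.00 without SOX11 siRNA replicate 3. Of the 104 named probe sets that were called, 76 stayed called in the same direction in all 23 alternatives. The most were lost without SOX11 siRNA replicate 2 (23), without untreated replicate 1 (21) or 4 (21), and in the analysis of variance (21). The control siRNA arrays changed place under quantile normalization for 4 of the 104, YPEL1 and FSCN1 to the untreated arrays and SPRY2 and FCRLA to the SOX11 siRNA arrays. The cause of these shifts was not tested. Dim probe sets limit the values, since the added 16 shrinks their differences.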

Other observations

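Some gene families, chosen after their values were seen, held several called members in SOX11 siRNA against untreated cells. Over all genes 1.13% were called higher and 2.01% lower. Of 19 S100 genes, small calcium-binding proteins, 4 were higher, S100A4 (log2 difference 0.93), S100A6 (0.74), S100A11 (0.64) and S100A10 (0.46), and 4 were higher under both scalings. Control siRNA against untreated cells gave 0.87, 0.60, 0.45 and 0.50 for the same genes. Of 11 annexins, which bind membranes in the presence of calcium, ANXA2 (0.80) and ANXA5 (0.39) were higher, with control siRNA differences of 0.70 and 0.30, and 3 were higher under both scalings.

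Of 6 SEC23 and SEC24 genes, which coat vesicles that leave the endoplasmic reticulum, SEC24D (0.88) and SEC23B (0.51) were higher, with control siRNA differences of 0.85 and 0.40, and 4 of the 6 were higher under both scalings. Of 6 guanylate-binding proteins, GTPases induced by interferon gamma, 4 were lower and 0 higher: GBP4 (-0.86), GBP7 (-0.57), GBP5 (-0.52) and GBP6 (-0.51), with control siRNA differences of -0.84, -0.51, -0.38 and -0.36. With median centring 1 was higher and 3 lower. For both families the shares of all genes are the same 1.13% higher and 2.01% lower.

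Of 439 ZNF zinc finger genes 29 were lower (6.61%, against 2.01% of all genes) and 0 higher. With quantile normalization 13 were higher and 51 lower, and with centring 8 higher and 21 lower. ZNF713 (-0.69), ZNF730 (-0.82) and ZNF738 (-0.83) had control siRNA differences from untreated cells of -0.23, -0.13 and -0.34. These families were picked for their calls, so no test was made of them.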
